A study of Mus musculus with 18 samples.

Results

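Of the 18 fetal lung RNA pools in the series, 6 taken at gestational day 17 (GD17) were compared: 3 from XY fetuses whose mothers had received flutamide and 3 from XY fetuses whose mothers had received vehicle. They were chosen by their sample labels alone. All fetuses were BALB/c mice. Pregnant females were injected subcutaneously once a day, from GD10 until the day before the lungs were taken, with 1 mg flutamide or with the vehicle, a saline solution containing gelatin and dimethyl sulfoxide. Each pool held whole-lung RNA of 3 fetuses, each of a different litter, and different individuals made up each pool. The labels do not say whether pools of a group shared litters. Sex had been determined by inspection of the genital tract and by a PCR for Sry. The drug reached the fetus through the mother, so every tissue of both was exposed and no lung cell type was singled out.

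Flutamide is a nonsteroidal antagonist that competes with androgens for the androgen receptor, a ligand-activated transcription factor. In late gestation the airway epithelium separates into club and ciliated cells, the distal epithelium into type I cells, which form the gas exchange surface, and type II cells, which make surfactant, while the mesenchyme between the air spaces thins and divides less. Androgens are known to delay surfactant production in the male fetus, and flutamide has long been used to remove that influence in XY fetuses.

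Expression was measured on Affymetrix MOE430 2.0 arrays, 1 array per pool, and is given as the log2 of the normalised probe set intensity. A gene with several probe sets is represented by the brightest, on average over the 18 arrays, and every difference is flutamide minus vehicle. A gene was called when its limma p-value, adjusted by Benjamini-Hochberg over all 45037 probe sets, was under 0.05. Of the probe sets, 1600 were called (3.55%), 575 higher with flutamide (1.28%) and 1025 lower (2.28%). Of 18193 genes, 490 (2.69%) were called, 308 higher with flutamide (1.69%) and 182 lower (1%). Applying quantile normalisation again gave 389 genes higher and 134 lower, so the share of higher genes among the calls moved from 62.9% to 74.4%. With the 6 compared pools alone 147 genes were higher and 180 lower (45% higher), without flutamide pool 1 the counts were 35 and 43 (44.9%), and at an adjusted p under 0.01 they were 19 and 36 (34.5%). The called differences were small, with a median size of 0.41, and 4 genes passed a 2-fold change: Scgb1a1 and Slc34a2 were higher, Mtm1 and Cxcl13 lower. Pools of the 2 groups did not overlap for 4869 genes (26.8%), 3015 of them higher with flutamide (16.6%) and 1854 lower (10.2%). The median difference over all genes was 0.04. Precision is limited by having 3 arrays in a group, and in whole lung fewer cells of a type cannot be told apart from less RNA per cell.

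**Figure D1:**
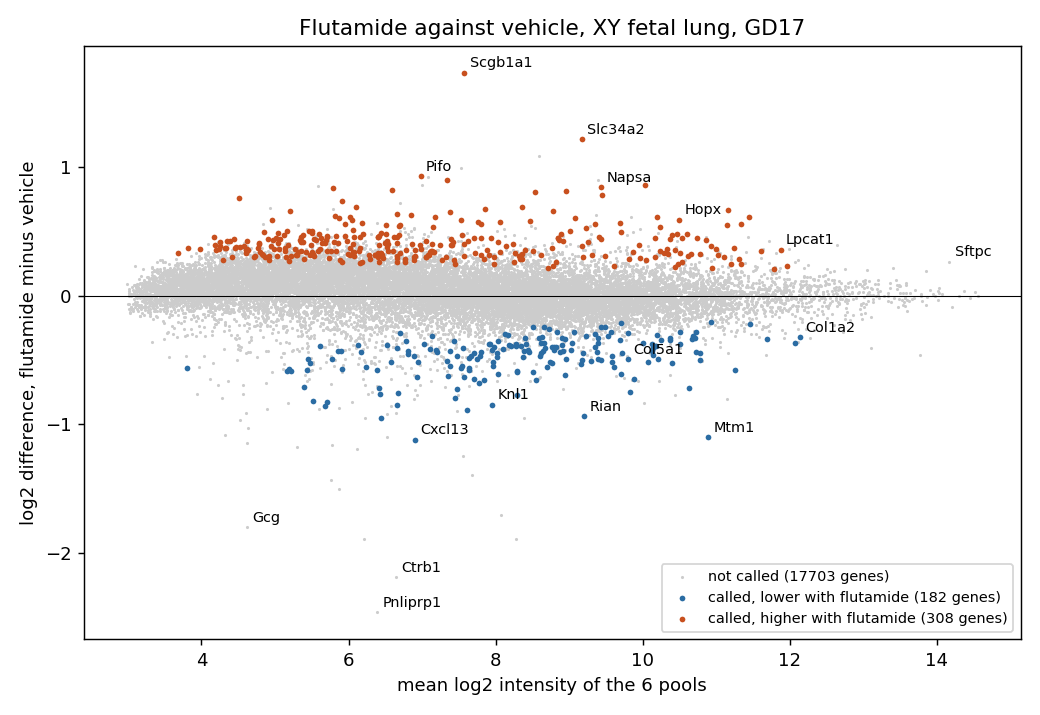
Log2 difference between flutamide and vehicle (vertical axis) against the mean log2 intensity of the 6 pools (horizontal axis), 1 point per gene, with the 308 genes called higher in orange, the 182 called lower in blue and all others in grey. Scgb1a1 lies at the top at 1.73, while the grey points with the lowest values, such as Pnliprp1 at -2.46, are pancreas genes that were not called.

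The pools matched their labels in Y-linked and lung transcripts. Transcripts of the Y-linked genes Uty, Kdm5d and Eif2s3y had group means between 8.09 and 8.33 in the XY pools. In the XX vehicle pools of the same day they had 3.26 to 3.61. High Y-linked transcripts cannot show whether an XY pool also held some XX RNA. Xist, the other sex check gene measured, differed by -0.42 and was not called. Without vehicle pool 3 its difference was -0.68 (limma adjusted p = 0.64), and it was called in 1 of 21 analyses. Sftpc, the surfactant protein gene restricted to lung epithelium, reached 13.92 to 14.33 in all 6 pools. Vehicle pool 3 stood apart in genes of other tissues. The mean log2 intensity over 25 exocrine pancreas genes was 7.87 in that pool, against 5.34 to 5.62 in the other 5. Pnliprp1, a pancreatic lipase-related protein, measured 6.23, 4.82 and 11.82 in the vehicle pools and 5.30, 5.26 and 4.92 in the flutamide pools. The same pool was highest in 12 islet genes (6.26, others 5.10 to 5.25), 16 squamous epithelium genes (7.32, others 5.93 to 6.26) and 10 skeletal muscle genes (7.69, others 6.09 to 6.37). Over 17 liver genes it had 9.60, but there the other pools also ranged from 6.50 to 8.43. Of these 25 pancreas genes 1 was called, Pla2g1b, a secreted phospholipase that the lung also expresses. It rose by 0.49. The median of the list was -0.57 with vehicle pool 3 and 0.11 without it.

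**Figure D2:**
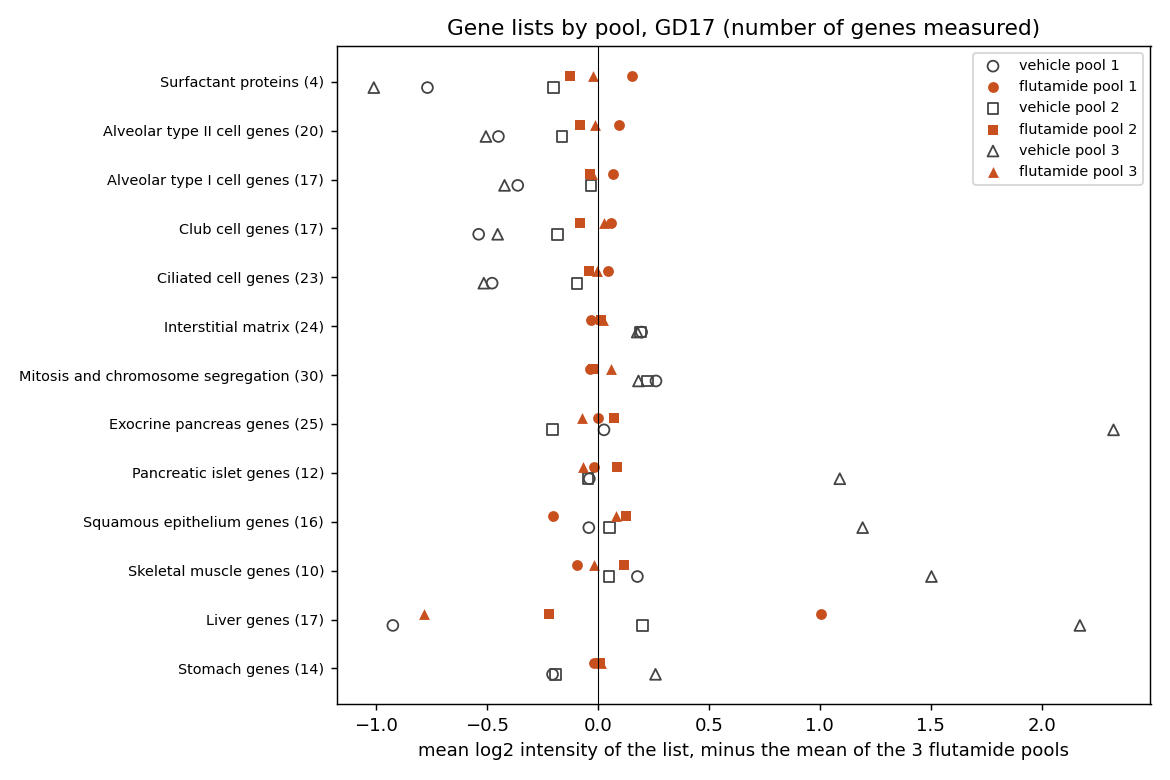
Mean log2 intensity of 13 gene lists in each GD17 pool, shown relative to the mean of the 3 flutamide pools, with open symbols for vehicle, filled symbols for flutamide and 1 symbol shape per pool number. Vehicle pool 3 (open triangle) lies far to the right in pancreas, squamous epithelium, skeletal muscle and liver genes, and vehicle pool 2 (open square) lies nearest to the flutamide pools in all 5 epithelial lists.

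Some genes of differentiated lung epithelium rose with flutamide. Of 81 measured genes on the lists for surfactant proteins and for type II, type I, club and ciliated cells, 20 were called higher and none lower, and 72 had a positive difference. The corresponding share over all genes was 1.69% higher, and 60.6% had a positive difference. The median of the 81 was 0.32.

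Among 20 genes of type II cells, 7 rose, none fell and the median was 0.34. Slc34a2 encodes the sodium-phosphate cotransporter that recovers phosphate from surfactant. Its level was 8.31, 9.50 and 7.88 in the vehicle pools against 9.92, 9.65 and 9.79 with flutamide. The groups did not overlap, although vehicle pool 2 came close to the flutamide pools. Napsa, the protease that processes surfactant protein B, measured 8.76, 9.63 and 8.65 with vehicle and 10.09, 9.66 and 9.84 with flutamide, again with vehicle pool 2 just under the flutamide pools. Cxcl15, the lung chemokine lungkine, was at 9.44, 10.22 and 9.16 against 10.59, 10.30 and 10.50, a 1.81-fold increase (SE 0.22 on the log2 scale, adjusted p = 0.042).

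Rab27a, Lpcat1 and Egfl6 were more even over the vehicle pools, with SDs of 0.16, 0.16 and 0.26. Those of Slc34a2, Napsa and Cxcl15 were 0.84, 0.54 and 0.55. For Rab27a, a small GTPase of secretory vesicles, the vehicle pools gave 7.61, 7.50 and 7.29 and the flutamide pools 8.05, 8.01 and 8.05. This 1.49-fold rise (SE 0.10, adjusted p = 0.0085) was called in all 21 analyses run at that threshold, the leaving out of each pool included. Lpcat1, the acyltransferase that makes the dipalmitoyl phosphatidylcholine of surfactant, went from 11.75, 11.82 and 11.51 to 12.09, 12.03 and 12.05, or 1.28-fold. It was not called without vehicle pool 3 (adjusted p = 0.0883). Egfl6 rose by 0.48 and the cathepsin gene Ctsh by 0.56 on the log2 scale, the latter with overlapping groups. Abca3, the lipid transporter of lamellar bodies, differed by 0.36 and was not called (adjusted p = 0.0973).

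None of the 4 surfactant protein genes was called on its representative probe set, although all had positive differences, with a median of 0.69, and an unadjusted p under 0.05. Sftpd, a collectin of innate defence, had 7.02, 7.60 and 6.49 with vehicle and 8.31, 7.76 and 8.02 with flutamide, a difference of 0.99 (adjusted p = 0.0649). Sftpa1, the other collectin, had 8.76, 9.61 and 8.46 against 10.06, 9.70 and 9.77, a difference of 0.90 (adjusted p = 0.0525). In both genes the groups were separate and vehicle pool 2 was the highest of its group. A further Sftpa1 probe set was called, at 1.11 (adjusted p = 0.0341). The hydrophobic surfactant proteins had the smaller differences, 0.49 for Sftpb (adjusted p = 0.079) and 0.26 for Sftpc (adjusted p = 0.0588).

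Type I cell genes followed the same order of pools. Of 17 measured 4 rose, none fell, and the median was 0.32. Hopx, a homeodomain-only cofactor, measured 9.93, 10.63 and 10.04 with vehicle and 10.88, 10.64 and 10.85 with flutamide. Ager, the receptor for advanced glycation end products and a hallmark of type I cells, stood at 11.02, 11.62 and 10.77 against 11.90, 11.69 and 11.67. These were rises of 1.51-fold (adjusted p = 0.0251) and 1.53-fold (adjusted p = 0.049), with vehicle pool 2 close to the flutamide pools in each. Limch1 rose 1.30-fold and Cyp2b10, a cytochrome P450, 1.37-fold. Aqp5, the type I cell water channel, differed by 0.37 and was not called.

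**Figure D3:**
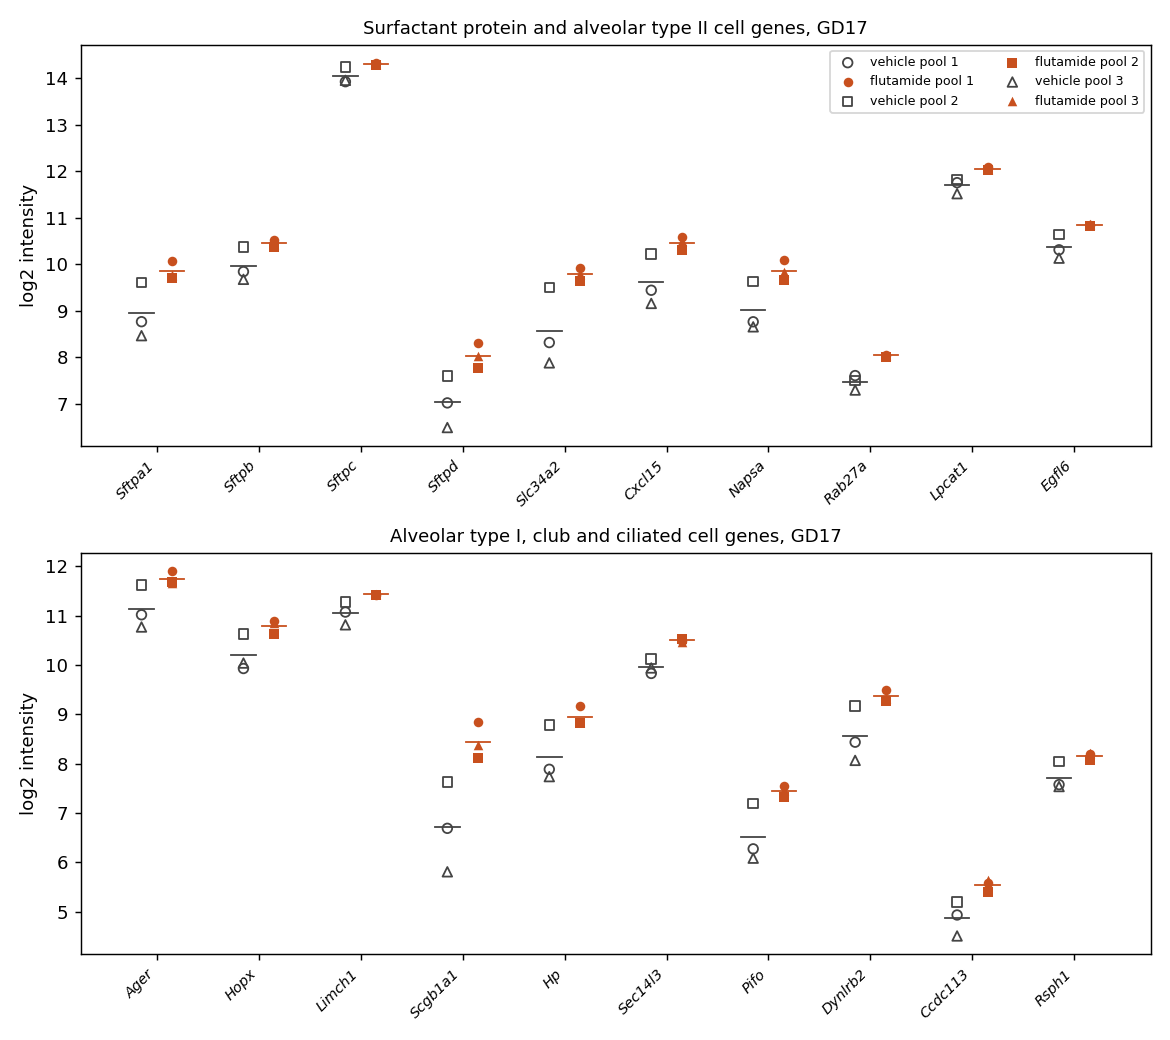
Log2 intensity (vertical axes) of 20 epithelial genes in the 3 vehicle pools (open grey) and 3 flutamide pools (filled orange) at GD17, with a symbol shape per pool number and a short line at each group mean. In nearly every gene the filled symbols sit close together and above the open ones, and in most the open square of vehicle pool 2 is the highest of its group, as for Scgb1a1 (5.81 to 7.63 with vehicle, 8.11 to 8.84 with flutamide).

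Of 17 club cell genes 3 rose and none fell, with a median of 0.32. Scgb1a1, the secretoglobin that club cells release in bulk, had the largest called difference of all genes, 1.73 (SE 0.37, adjusted p = 0.0191), from 6.69, 7.63 and 5.81 to 8.84, 8.11 and 8.37. The acute-phase protein haptoglobin, Hp, measured 7.89, 8.78 and 7.74 with vehicle and 9.17, 8.83 and 8.84 with flutamide, 1.75-fold higher. Sec14l3, a lipid-binding protein of airway epithelium, rose 1.45-fold. Other secretoglobin genes were not called: Scgb3a1 differed by 1.00 (adjusted p = 0.112) and Scgb3a2 by 0.39 (adjusted p = 0.0717).

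Of 23 ciliated cell genes 6 rose and none fell, and the median was 0.32. Pifo, which is needed for the disassembly of primary cilia, had 6.27, 7.19 and 6.08 with vehicle against 7.54, 7.33 and 7.46, a 1.90-fold rise (SE 0.19, adjusted p = 0.0145). Dynlrb2, a dynein light chain, measured 8.44, 9.17 and 8.07 against 9.50, 9.28 and 9.33, 1.76-fold higher (SE 0.18, adjusted p = 0.0245). Flutamide pools were above vehicle pools in both genes, with vehicle pool 2 nearest to them. The other called members were Ccdc113 (1.58-fold), the radial spoke gene Rsph1 (1.36-fold), the tektin gene Tekt4 (1.46-fold) and Lrrc23 (1.61-fold). Foxj1, the transcription factor that switches on motile ciliogenesis, differed by 0.50 and narrowly missed the threshold (adjusted p = 0.0515). Further ciliary genes outside the list, Hoatz, the dynein light intermediate chain Dnali1 and the dynein intermediate chain Wdr63, were among the 12 largest increases, at 0.84, 0.83 and 0.76. Wdr63 was the steadiest of them over the vehicle pools, which gave 4.08, 4.37 and 3.91 against 4.89, 4.93 and 4.83. All of these values lay below the array medians of 6.36 to 6.38, so the small spread is that of a weak signal.

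The promoters of the ciliated cell genes were read from RefSeq (mouse build GRCm38.p6), from 250 bases before to 50 after each start site. Promoters were found for 20 of the 23 ciliated cell genes, 22 promoters in all. The letters GTTGCC, on either strand, which form a half-site of RFX factors known to regulate ciliary genes, occurred in 12 of the 22 (54.5%), against 12.5% of all 32851 promoters. The last 100 bases before and 50 after the start site are shown for the promoters of Dynlrb2 and Pifo that hold them, the list's members with the largest differences, with GTTGCC or its reverse complement in capitals. They lie at chr8:116504915-116505064, plus strand, and at chr3:106001448-106001597, minus strand, the latter 1 of 2 Pifo promoters.
Dynlrb2: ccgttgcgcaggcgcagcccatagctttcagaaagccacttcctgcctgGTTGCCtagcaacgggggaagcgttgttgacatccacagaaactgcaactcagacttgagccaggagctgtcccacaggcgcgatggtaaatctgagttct
Pifo: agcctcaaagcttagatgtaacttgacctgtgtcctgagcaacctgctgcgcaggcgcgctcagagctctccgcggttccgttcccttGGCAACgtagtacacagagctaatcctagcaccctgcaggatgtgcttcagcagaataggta

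How many epithelial genes were called depended on each pool. Without vehicle pool 2 the counts of higher genes were 9 for type II, 5 for type I, 7 for club and 13 for ciliated cells, and all 4 surfactant protein genes were called. Without vehicle pool 3 they were 2, 1, 1 and 1, and without vehicle pool 1 they were 1, 0, 0 and 0. Leaving out flutamide pool 1, 2 or 3 left 1, 2 and 2 type II genes, 0, 1 and 0 type I genes, 0, 1 and 0 club genes and 0, 1 and 1 ciliated genes. Where limma called none, in the fit without vehicle pool 1 for example, the medians were 0.24 for type I, 0.25 for club and 0.30 for ciliated cells. With any pool left out the medians stayed positive, at 0.27 to 0.43 for type II, 0.23 to 0.47 for type I, 0.25 to 0.42 for club and 0.27 to 0.41 for ciliated cell genes. Vehicle pool 2 was the highest vehicle pool in 14 of 20 type II, 15 of 17 type I, 12 of 17 club and 19 of 23 ciliated genes, and in 31.4% of all genes. Vehicle pool 3, with its pancreas signal, was the lowest vehicle pool in 15 of the 20 type II genes. Without it Scgb1a1 (1.28, adjusted p = 0.047), Pifo (0.71, adjusted p = 0.0359), Rab27a and Wdr63 were called, while Slc34a2 (0.88, adjusted p = 0.119), Napsa (0.66, adjusted p = 0.0939), Cxcl15 (0.63, adjusted p = 0.11) and Ager (0.43, adjusted p = 0.13) were not. A term in the model for the pools high in pancreas genes marked vehicle pool 3 and XX vehicle pools 2 and 3 of GD17. In those XX pools the exocrine pancreas list averaged 8.38 and 8.32, so the term was estimated largely outside the 6 compared pools. With it 4 type II, 1 type I, 2 club and 2 ciliated genes were called higher, and the medians were 0.29, 0.24, 0.24 and 0.26. In a fit of the 6 compared pools alone 1 type II and 1 club gene were called and no type I or ciliated gene, with the medians as in the fit of all 18 arrays.

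**Figure D4:**
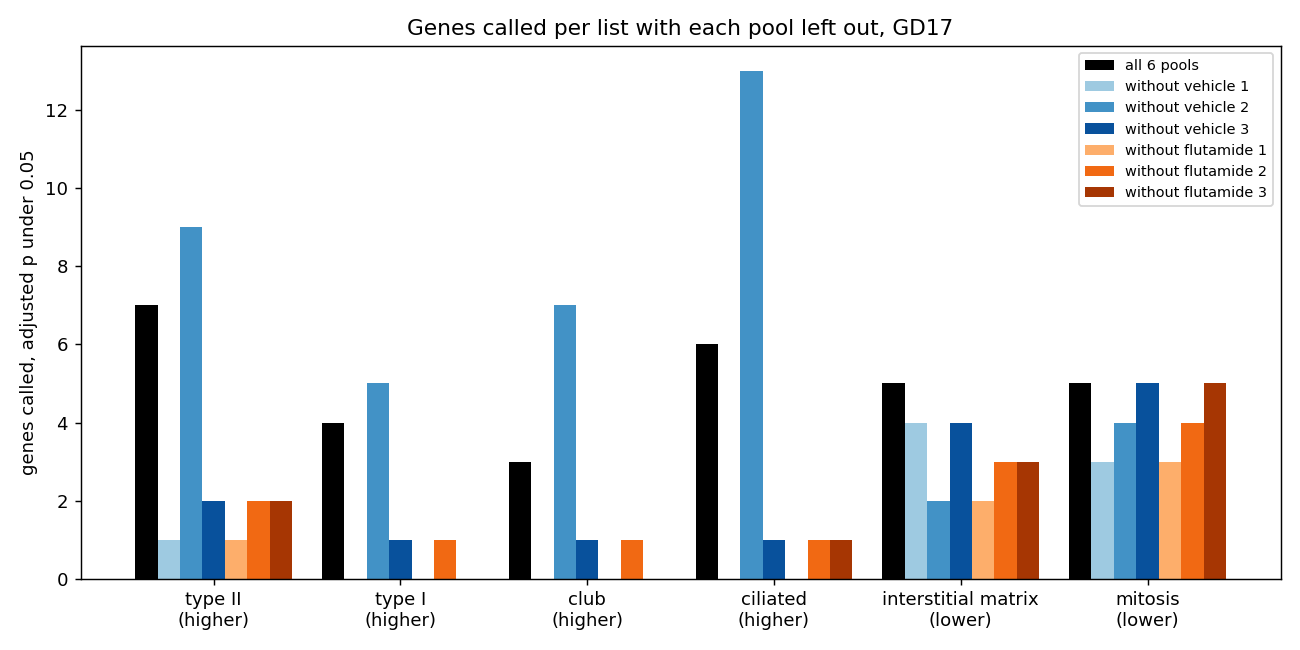
Number of genes called (vertical axis, adjusted p under 0.05) in 6 lists with all pools (black) and with each vehicle pool (blues) or flutamide pool (oranges) left out; the first 4 lists count genes higher with flutamide and the last 2 genes lower. Ciliated cell calls went from 13 without vehicle pool 2 to 0 without vehicle pool 1, whereas mitosis calls stayed between 3 and 5.

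Transcription factors and surface proteins of the epithelium were counted in the same way. Of 19 epithelial transcription factor genes 1 rose, Foxp1, a forkhead repressor, from 10.55, 10.56 and 10.38 to 10.82, 10.81 and 10.83 (1.25-fold, adjusted p = 0.0464). None of the 7 other probe sets of Foxp1 was called, and one of them lay in the other direction at -0.65 (adjusted p = 0.144), with separate groups. A second probe set of Klf5, a Krüppel-like factor of the distal epithelium, was called at 0.59, while the representative one differed by 0.10. Among 19 genes of tight junctions and cell polarity limma called none (median -0.01), with 5 higher and 2 lower at an unadjusted p under 0.05, and among 14 of fluid and ion transport none (median 0.21), with 3 higher.

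Some genes of the interstitial matrix fell with flutamide. Of 24 measured 5 fell and none rose, against 1% lower over all genes, and the median was -0.12. Col1a1 and Col1a2 encode the chains of type I collagen. Col1a1 measured 10.72, 10.60 and 10.64 with vehicle and 9.96, 10.22 and 10.22 with flutamide, 1.44-fold lower (SE 0.08, adjusted p = 0.0045), though its second probe set differed by -0.19 and was not called. Col1a2 went from 12.23, 12.36 and 12.29 to 11.92, 12.09 and 11.91. For Col5a1, a chain of the collagen that nucleates type I fibrils, the vehicle pools gave 10.12, 10.06 and 9.96 and the flutamide pools 9.52, 9.54 and 9.60, a difference of -0.49 (SE 0.07, adjusted p = 0.00174). All 3 collagen genes had separate groups and a narrow spread among the vehicle pools.

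Dcn, the proteoglycan decorin, was the most shifted of the called matrix genes, at 9.94, 10.11 and 10.55 against 9.40, 9.48 and 9.47, 1.68-fold lower (adjusted p = 0.0465). Postn, the matricellular protein periostin, fell 1.22-fold. Lum, the related proteoglycan lumican, had a difference of -0.84 but a wider spread and was not called (adjusted p = 0.0809). In Dcn and Lum the highest value was that of vehicle pool 3. The list means did not overlap, with 10.65 to 10.67 in the vehicle pools and 10.45 to 10.50 in the flutamide pools. With single pools left out 2 to 4 matrix genes were called lower, 4 of them without vehicle pool 3 and 2 without vehicle pool 2 or flutamide pool 1. By limma none was called among 13 genes of elastic fibre assembly (median -0.12, with 6 lower and 1 higher at an unadjusted p under 0.05) and none among 19 of the basement membrane, where 2 were lower at that level.

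Myh11, the smooth muscle myosin heavy chain, measured 10.04, 9.87 and 9.91 with vehicle and 9.41, 9.56 and 9.52 with flutamide. Synpo2, an actin-binding protein of muscle, went from 8.72, 8.54 and 8.58 to 8.07, 8.20 and 8.13. They were the called members among 16 genes of smooth muscle and PDGF signalling, with falls of 1.36-fold and 1.39-fold, and neither was called without vehicle pool 1 or without any of the flutamide pools.

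**Figure D5:**
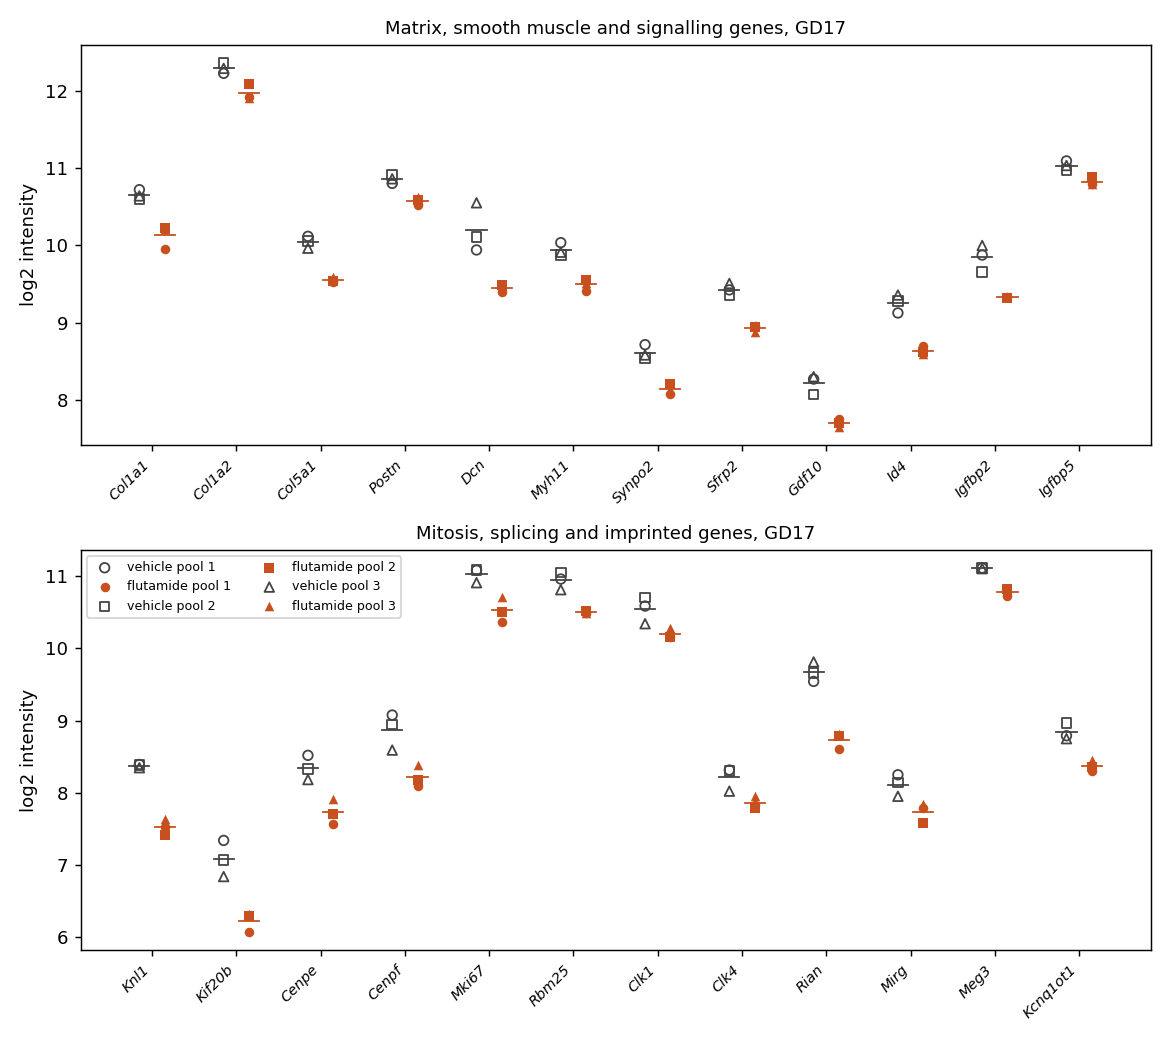
Log2 intensity (vertical axes) of 24 genes of matrix, smooth muscle, signalling, mitosis, splicing and imprinted loci in the 3 vehicle pools (open grey) and 3 flutamide pools (filled orange) at GD17, with a symbol shape per pool number and a line at each group mean. Flutamide pools lie below vehicle pools in each gene shown, and vehicle pool 2 is not set apart from its group, as for Knl1 (8.35 to 8.39 with vehicle, 7.42 to 7.64 with flutamide).

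On the lists for secreted signals, few genes were called on their representative probe sets. Gdf10, a BMP family ligand, measured 8.27, 8.07 and 8.30 with vehicle and 7.76, 7.70 and 7.65 with flutamide (-0.51, SE 0.10, adjusted p = 0.01). Sfrp2, a secreted inhibitor of Wnt ligands, went from 9.42, 9.35 and 9.51 to 8.96, 8.95 and 8.88 (-0.50, SE 0.09, adjusted p = 0.00844). Both were called in all 21 analyses at that threshold. Id4, an inhibitor of helix-loop-helix factors that BMP signals induce, fell 1.53-fold, but was not called without vehicle pool 3 (adjusted p = 0.0783). These were 2 of 32 genes of TGF-beta and BMP signalling and 1 of 28 of Wnt signalling.

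Of 17 genes of the insulin-like growth factor axis 2 fell, the binding proteins Igfbp2 (1.43-fold) and Igfbp5 (1.15-fold). Neither was called without vehicle pool 3 (adjusted p = 0.106 and 0.0706), nor with the term for the pools high in pancreas genes. They were called in 10 and 8 of the 21 analyses at that threshold. Igfbp2 had a mean of 9.84 (SD 0.17) in the vehicle pools, all of which lay above the flutamide pools at 9.33, 9.32 and 9.33. The growth factor Igf1 itself differed by -0.33 on its representative probe set, which was not called (adjusted p = 0.269), while 2 other probe sets of Igf1 were called at -0.40 and -0.56. Tgfb2, the growth factor TGF-beta 2, had a called probe set in the other direction, at 0.49, beside 0.13 on the representative one. No member was called by limma among 14 hedgehog genes, with 2 each way at an unadjusted p under 0.05, or among 18 fibroblast growth factor genes, with 4 higher and 1 lower.

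A few genes of cell division fell with flutamide. Of 30 genes of mitosis and chromosome segregation, 5 fell and none rose, 28 had a negative difference, and the median was -0.13. Over all genes 1% were called lower and 60.6% had a positive difference. Knl1, the kinetochore scaffold, measured 8.39, 8.38 and 8.35 with vehicle and 7.52, 7.42 and 7.64 with flutamide (1.80-fold lower, SE 0.09, adjusted p = 0.000392), and its second probe set fell by 0.80. Kif20b, a kinesin of cytokinesis, had 7.34, 7.07 and 6.84 against 6.08, 6.30 and 6.32. Cenpe, the kinetochore motor, had 8.52, 8.33 and 8.18 against 7.57, 7.71 and 7.92, and its second probe set fell by 0.98. In all of these the highest flutamide pool was below the lowest vehicle pool.

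Cenpf, a kinetochore protein, fell 1.57-fold and Mki67, which encodes the proliferation marker Ki-67, 1.41-fold, from 11.08, 11.08 and 10.91 to 10.36, 10.50 and 10.71. Plk1, a mitotic kinase, differed by -0.26 and was not called. With single pools left out 3 to 5 mitosis genes were called, 5 without vehicle pool 3 and 3 without vehicle pool 1 or flutamide pool 1. Among 24 DNA replication genes limma called none, with 1 lower at an unadjusted p under 0.05, 22 had a negative difference and the median was -0.11. Pola1, the catalytic subunit of DNA polymerase alpha, had the smallest p of that list, at a difference of -0.33 (adjusted p = 0.165).

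Promoters were found for 25 of the 30 mitosis genes, 27 in all. TTTGAA, on either strand, the letters of the cell cycle homology region through which late cell cycle genes are known to be repressed outside division, occurred in 22 of the 27 (81.5%), against 17.9% of all promoters. Such a match describes the sequence and does not show a site in use. The same window is shown for 3 of the 5 called members, with TTTGAA in capitals. These are Knl1 (chr2:119047019-119047168, plus strand), Kif20b (chr19:34922258-34922407, plus strand) and Cenpf (chr1:189688037-189688186, minus strand). Cenpe and Mki67 are not shown. Kif20b carries it in 2 adjoining copies.
Knl1: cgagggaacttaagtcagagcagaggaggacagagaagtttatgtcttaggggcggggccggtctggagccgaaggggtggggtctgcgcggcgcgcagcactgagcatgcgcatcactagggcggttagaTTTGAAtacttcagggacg
Kif20b: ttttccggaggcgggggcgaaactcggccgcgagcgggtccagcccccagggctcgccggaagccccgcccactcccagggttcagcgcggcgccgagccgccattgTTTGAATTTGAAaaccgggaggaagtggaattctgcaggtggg
Cenpf: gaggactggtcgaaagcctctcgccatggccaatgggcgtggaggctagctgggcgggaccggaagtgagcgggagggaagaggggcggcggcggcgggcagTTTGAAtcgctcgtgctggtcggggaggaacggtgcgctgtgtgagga

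Of 26 splicing factor genes 3 fell: Rbm25, from 10.96, 11.05 and 10.81 to 10.49, 10.52 and 10.48, and the kinases Clk1 and Clk4, which phosphorylate splicing factors, by 0.35 each. The Clk genes had their lowest vehicle level in vehicle pool 3. Without vehicle pool 3 the count was again 3, and with any other of the 6 pools left out it was 0, with 6 lower at an unadjusted p under 0.05 in the full comparison.

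Of 21 imprinted genes 3 fell, none rose, and the median was -0.13. Rian, Mirg and Meg3 are maternally expressed noncoding RNAs of the same imprinted cluster. Rian measured 9.54, 9.65 and 9.81 with vehicle and 8.61, 8.78 and 8.81 with flutamide, 1.91-fold lower (SE 0.10, adjusted p = 0.000329), with 2 further probe sets called at -0.70 and -0.44. Mirg had 8.25, 8.14 and 7.95 against 7.79, 7.58 and 7.84. Meg3 differed by -0.33 on its representative probe set and was not called there (adjusted p = 0.176), but 4 of its other probe sets were called lower, the strongest at -0.82. The groups were separate in all 3 genes. Kcnq1ot1, the paternally expressed antisense RNA of another imprinted domain, was the other called member, from 8.79, 8.97 and 8.75 to 8.30, 8.35 and 8.45. Igf2r, the imprinted receptor that clears insulin-like growth factor 2, differed by -0.44 (adjusted p = 0.0601). The count of imprinted genes called lower was 1 without vehicle pool 2 or flutamide pool 1 or 2, 2 without vehicle pool 1, 3 without flutamide pool 3 and 4 without vehicle pool 3, and Rian was called in all 21 analyses.

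Genes of the androgen pathway itself were not among the calls. No member was called among 16 genes of androgen metabolism (median 0.05), 31 androgen receptor coregulators (median -0.04) and 14 genes that respond to androgen in other tissues (median 0.14). At an unadjusted p under 0.05 the counts were 4 higher, 2 lower and 3 higher. The androgen receptor gene was not analysed here. Hsd17b4, a dehydrogenase that inactivates sex steroids and acts in peroxisomes, had 9.85, 9.91 and 9.86 with vehicle and 10.07, 10.02 and 10.14 with flutamide, a difference of 0.21 with separate groups (adjusted p = 0.0722). Akr1c14, a hydroxysteroid dehydrogenase, varied from 5.37 to 6.79 among the vehicle pools, and the flutamide pools lay at 6.42 to 6.89. The coregulator with the smallest p was the acetyltransferase gene Crebbp (-0.22, adjusted p = 0.0973).

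Glucocorticoids drive lung maturation before birth. Of 16 genes of that pathway 1 rose: Crh, corticotropin-releasing hormone, from 10.06, 10.42 and 10.01 to 10.68, 10.62 and 10.61 (1.39-fold, adjusted p = 0.0414). Hsd11b1, the enzyme that regenerates active glucocorticoid, measured 8.75, 9.66 and 8.75 with vehicle and 9.77, 9.59 and 9.69 with flutamide. Vehicle pool 2 lay inside the flutamide range, and the difference of 0.63 was not called (adjusted p = 0.0645).

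Among lipid genes, 1 of 27 for fatty acid and phospholipid synthesis rose, the surfactant acyltransferase gene Lpcat1 already described. Limma called none of 19 cholesterol genes, of which 17 had a negative difference and 4 were lower at an unadjusted p under 0.05. No gene was called in the lists for endothelium (21 genes, 4 higher at an unadjusted p under 0.05), macrophages and leukocytes (16, 4 higher), erythroid cells (14, 2 higher) and immediate early genes (16, 3 higher and 1 lower). The same held for lipofibroblasts, mesothelium, thymocytes, cardiac muscle, cartilage, squamous epithelium, liver and skeletal muscle, with 0 at an unadjusted p under 0.05 in each, and for islet (1 lower), stomach (3 higher) and neuronal genes (2 higher). Of 9 nuclear-retained noncoding RNAs 1 fell, Kcnq1ot1.

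The remaining genes with large called differences belonged to no list. Cxcl13, a chemokine that attracts B cells, measured 7.25, 7.34 and 7.80 with vehicle and 6.13, 6.49 and 6.41 with flutamide, 2.17-fold lower (SE 0.20, adjusted p = 0.0091). Mtm1, the phosphatase myotubularin, had 11.65, 11.17 and 11.49 against 10.38, 10.38 and 10.25. Its other probe sets differed by -0.33 and 0.10 and were not called, so the fall rests on that probe set, and it was not called without vehicle pool 3 (adjusted p = 0.0845). Dcx, the neuronal microtubule protein doublecortin, had 7.51, 6.57 and 6.68 against 6.05, 6.09 and 5.77, and 3 other Dcx probe sets were not called.

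On the side of higher genes, Slc6a14, an amino acid transporter, measured 6.45, 7.55 and 6.66 with vehicle and 7.75, 7.73 and 7.89 with flutamide (1.87-fold). Ces1d, a carboxylesterase that hydrolyses lipid esters, went from 8.90, 9.42 and 8.85 to 9.95, 9.78 and 9.78 (1.72-fold, SE 0.15, adjusted p = 0.0107). Vehicle pool 2 was again the highest of its group in both genes.

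One day later the same contrast can be read at GD18, where 3 flutamide pools and 3 XY vehicle pools were analysed in the same model. The GD18 vehicle pool 3 stood apart in RNA quality controls, with a 5′ minus 3′ signal of -0.39 for Gapdh and -0.80 for Actb, against 0.14 to 0.27 and -0.49 to -0.34 in the other 17 arrays. A difference between the days was called for 30 of the 18193 genes (0.165%). Col5a1 was -0.49 at GD17 and 0.10 at GD18, and Rian -0.94 and -0.28, both with a called interaction. The epithelial genes were smaller at GD18, with 0.54 for Scgb1a1, -0.01 for Pifo, 0.06 for Dynlrb2 and 0.05 for Hopx, but none of these changes between days was called (adjusted p of the interaction 0.383, 0.157, 0.252 and 0.264). The mitosis genes were as low or lower at GD18, with -1.49 for Kif20b, -1.34 for Cenpe and -1.16 for Knl1, and their interactions were not called either (adjusted p = 0.186, 0.0535 and 0.356). Without that pool and the GD18 flutamide pool 3, which were left out together, 22 genes had a called interaction, and Col5a1 (0.12 at GD18, adjusted p = 0.027) and Rian (-0.15, adjusted p = 0.027) were among them. The other GD18 differences were then 0.58 for Scgb1a1, -0.11 for Pifo, -0.02 for Dynlrb2, 0.07 for Hopx, -1.37 for Kif20b, -1.29 for Cenpe and -1.26 for Knl1, again with no called interaction. Sex check genes moved as well. With all pools the GD18 difference was 1.32 for Xist, -0.37 for Uty, -0.29 for Kdm5d and -0.69 for Eif2s3y. Without the left-out pools these were 0.11, 0.12, 0.06 and -0.21. What set those pools apart in the sex check genes was not tested.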

How the data were processed

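Lung RNA was hybridised to Affymetrix MOE430 2.0 arrays. The authors extracted probe intensity values and applied RMA (background subtraction, quantile normalisation and probe set summary) over the 18 arrays, and the deposited intensity values are linear. RMA evens out the distributions of the arrays, so a change shared by most genes cannot be seen. Values were taken to log2 here, and 64 control probe sets were left out of 45101. In limma 3.58.1 (R 4.3.3) each of the 6 groups had its own mean (residual degrees of freedom: 12), and 17 flut minus 17 m was tested with Benjamini-Hochberg adjustment at 0.05, as was its difference from the GD18 contrast. The fit was tested on simulated data.

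GEO's platform annotation gave 1 symbol to 34945 probe sets, several to 932 and none to 9160. For a gene, its brightest probe set on average was used. Of 817 genes on 46 lists, 760 had one. Named genes were the 12 largest called, non-overlapping differences each way, up to 4 members per list by smallest p, genes the study's text names, and sex check and surfactant protein genes; other list members are named where their list is described. The members and lists were chosen with earlier results of these data known, and the promoter motifs after the values were seen. P-values measure the spread between pools. Alternatives were other scalings, filters, weights, sample sets and left-out pools. Promoters are RefSeq's, GRCm38.p6.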

Additional observations from a re-analysis of the deposited data

Results flagged for a closer look

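Among the named genes 3 had a GD17 difference that itself differed from the GD18 difference, by the interaction term of limma. Col5a1 was -0.49 at GD17 and 0.10 at GD18, an interaction of 0.60 (adjusted p = 0.0131). B230216N24Rik, a gene of unassigned function, was -0.82 and 0.05, an interaction of 0.87 (adjusted p = 0.0346). Rian was -0.94 and -0.28, an interaction of 0.66 (adjusted p = 0.0494). Without GD18 vehicle pool 3, which stood apart in RNA quality controls, and GD18 flutamide pool 3, the interactions were 0.61, 0.99 and 0.79 (adjusted p = 0.027, 0.0303 and 0.027). At GD17 B230216N24Rik measured 6.30, 6.15 and 5.89 in the vehicle pools and 5.14, 5.48 and 5.25 in the flutamide pools. Groups of 3 were too small for a test of single outlying pools.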

How the results depend on the processing

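Of 1600 probe sets called (575 higher, 1025 lower) and 164 with a called interaction, limma gave 287, 36, 251 and 0 at an adjusted p under 0.01, then 3398, 1578, 1820 and 367 under 0.10, and 9121, 5184, 3937 and 5319 at an unadjusted p under 0.05. With 1 probe set per gene the counts were 345, 206, 139 and 9, and with array weights 3952, 1588, 2364 and 685. Leaving out 18 m 3 and 18 flut 3 gave 3590, 1245 and 2345, and leaving out 17 m 3 with them, an alternative chosen after seeing the data, 4102, 1516, 2586 and 302. The 9 GD17 pools alone gave 2851 with 2097 lower, the 6 compared pools alone 311 higher, and brighter probe sets alone an interaction count of 289. With single pools left out, the counts ranged over 411 to 1852, 83 to 667, 328 to 1185 and 54 to 235, lowest in all but the last without flutamide pool 1, and were 502 without vehicle pool 1, 506 without flutamide pool 2, 671 without flutamide pool 3 and 1035 without vehicle pool 2. The cause was not tested. No named gene that was called changed direction under any alternative. Of 56 such genes 15, 23 and 25 were still called without flutamide pools 1, 2 and 3, and 20, 42 and 33 without vehicle pools 1, 2 and 3. With the 6 compared pools alone 28 were called, and with the pancreas term 38.

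Deviations from the group means were correlated at -0.19, -0.02 and -0.12 between pools that share a replicate number. Between pools of unlike number the correlations were -0.02 to 0.19. Deviations within a group of 3 cancel out, so these values cannot decide whether the numbers pair the pools. With the replicate number as a block 354 probe sets were called higher and 85 had a called interaction, and 2 type II, 1 type I, 2 club and 6 ciliated genes were called higher.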

Other observations

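Genes whose symbol begins with Zfp, most of which encode zinc finger proteins, were chosen after their values were seen and carry no test. Of 339 such genes 30 were called lower with flutamide (8.85%) and none higher, against 1% lower over all genes, and their median difference was -0.05. Zfp62 measured 8.05, 8.18 and 7.93 in the vehicle pools and 7.12, 7.07 and 7.30 in the flutamide pools, and Zfp711 8.91, 8.74 and 8.37 against 7.79, 7.99 and 7.93. Both had separate groups. Of 56 genes with a motile cilium symbol (Cfap, Dnah, Dnai, Dnal, Dnaaf, Tekt, Rsph or Drc), chosen in the same way, 10 were called higher (17.9%) and none lower, and 52 had a positive difference.

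Probe sets without a gene symbol of their own made up 42.3% of those called lower (434 of 1025) and 16.7% of those called higher (96 of 575), against 22.4% of all 45037. A further 441 genes were called through a probe set other than the representative one. Of 25 measured genes that the study's text names for this contrast, 2 were called higher (Lpcat1 and Foxp1) and 4 lower (Ncam1, Gdf10, Igfbp2 and Igfbp5). The study chose that list on these samples, so it is no independent evidence of a direction. Ncam1, a neural cell adhesion molecule, measured 8.65, 8.80 and 9.06 with vehicle and 8.38, 8.43 and 8.36 with flutamide. Without vehicle pool 3 it was not called (-0.34, adjusted p = 0.0602), nor were Lpcat1, Foxp1, Igfbp2 and Igfbp5, while Gdf10 was.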
